A study of Homo sapiens with 16 samples.

Results

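The transcriptional response to palbociclib plus indisulam was compared between 2 human cancer cell lines, SUM159 and A549. For each gene, the log2 change from untreated cells (UT) to cells given both drugs (P+I) in A549 was subtracted from the same change in SUM159. A positive difference therefore means that the transcript was higher after treatment in SUM159 relative to A549, through a larger rise or a smaller fall, and a negative difference means the reverse. The contrast used 8 of the 16 libraries of the series, 2 for each of A549 UT, A549 P+I, SUM159 UT and SUM159 P+I, and 17764 of the 58676 gene identifiers had enough reads to be tested. The question was where lines that both received the combination differ in their response, gene by gene. A549 is a lung adenocarcinoma line and SUM159 a triple-negative breast cancer line. The cells were given 2 µM palbociclib together with 3 µM indisulam for 16 h, or no drug. A549 was grown in RPMI and SUM159 in DMEM/F12 with insulin and hydrocortisone, so line and medium cannot be told apart. The duplicates are technical per the series, so every p-value measures only the spread between such libraries and says nothing of independent cultures.

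Palbociclib inhibits the kinases CDK4 and CDK6, which keeps the RB protein active, and RB then holds the E2F factors that switch on the genes of DNA replication. Indisulam joins the splicing factor RBM39 to the DCAF15 ubiquitin ligase, and RBM39 protein is then degraded. A cell line can differ from another in the depth of the cell cycle arrest, in the p53 pathway, which drives the CDK inhibitor CDKN1A, and in stress and interferon programmes.

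Levels are given as CPM, counts scaled to a common library total, with the scaling done within each line. The 8 libraries held 18306636 to 30476269 gene counts, and 3 counts, taken as the lowest level that could be seen, corresponded to 0.0984 to 0.164 CPM. This floor covers counting error only. Line markers were mixed. CEACAM6 lay between 951 and 1196 CPM in A549 and between 0 and 0.0954 CPM in SUM159, and VIM and SNAI2 were higher in SUM159 (2742 to 4137 and 40.9 to 61.1 CPM) than in A549 (820.1 to 937 and 0.260 to 1.04 CPM). ERBB2 did not separate the lines (107 to 138 CPM in A549 and 98.2 to 145 CPM in SUM159), and ESR1 did not exceed 0.454 CPM. The lung markers SFTPB and NKX2-1 did not exceed 0.341 CPM in either line, and the hormone receptor gene PGR was at 0 in all 8 libraries. Among markers of other cell types, CD3E, CDH5 and HBB did not exceed 0.284 CPM in either line. The collagen gene COL1A1 was the highest, at 700.3 to 779 CPM in SUM159 and 2.41 to 3.46 CPM in A549. SUM159 also held 3.44 to 9.20 CPM of COL3A1, 17.3 to 38.7 CPM of the endothelial marker PECAM1 and 3.43 to 4.15 CPM of PTPRC. The part of these transcripts in the results was not tested. The gene of p16, CDKN2A, measured 1.36 to 2.50 CPM in A549 and 0 to 0.0481 CPM in SUM159. The study describes A549 as p16 null and reports more p16 protein in SUM159 by Western blot, after days of the combination rather than 16 h. The transcript level was nevertheless the higher one in A549, and the cause was not tested. Differences were tested with edgeR's quasi-likelihood test, with p-values adjusted by Benjamini and Hochberg over all 17764 genes. A difference or response was called where the adjusted p was under 0.05, and errors of log2 values are standard errors (SE) with n = 2 libraries per group.

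The transcript of RBM39, whose protein is the target of indisulam, rose in both lines. It measured 174 and 179 CPM in UT and 336 and 339 CPM in P+I A549 libraries, and 229 and 223 CPM in UT and 389 and 406 CPM in P+I SUM159 libraries. The responses were 0.93 ± 0.04 and 0.81 ± 0.04, and their difference of -0.12 ± 0.05 (SE, adjusted p = 0.11) was not called, with a 95% interval of -0.23 to -0.01. With TMM referred to a SUM159 library it was called, at -0.18 (adjusted p = 0.012). Cyclin H (CCNH), a subunit of the CDK-activating kinase, fell in both lines, from 27.2 and 23.9 to 10.1 and 10.9 CPM in A549 and from 54.5 and 53.6 to 23.5 and 20.9 CPM in SUM159. Its responses were -1.28 ± 0.09 and -1.28 ± 0.07, and the interval of the difference was -0.22 to 0.23.

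Most genes responded in each line, and a smaller share differed between the lines. In A549 9396 genes (52.9%) responded and in SUM159 10334 (58.2%). The difference was called for 5626 genes (31.7%), of which 2843 (16.0% of those tested) were higher in SUM159 relative to A549 and 2783 (15.7%) lower. This split depends on the scaling, as 60.8% of the called genes were higher with total counts and 40.1% with TMM referred to a SUM159 library. Large differences were mostly higher in SUM159 under each scaling. 1030 genes (5.80%) differed by at least 1 on the log2 scale, 888 of them higher in SUM159 and 142 lower, and with TMM referred to a SUM159 library 780 were higher and 174 lower. Among the 9656 genes with at least 5 CPM in each line, 206 were higher and 29 lower by that margin.

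The called differences fell into several shapes. In 1066 genes both lines moved the same way with the larger response in A549, and in 907 with the larger response in SUM159. In 1243 genes the response passed the threshold in A549 but not in SUM159, and in 1578 the reverse. The remaining groups were 73 genes with neither response called and 759 genes (4.27%) with opposite responses, each called in its own line. Of the opposite genes 432 (2.43%) rose in A549 and fell in SUM159, and 327 (1.84%) did the reverse. This split also depended on the scaling: with another scaling or tool the SUM159-rising share ran from 27.9% to 58.9%, and 310 genes were opposite with the same sign under all 5 settings of scaling and tool. With both responses at 0.5 or more on the log2 scale 117 genes remained, 99 of them rising in SUM159, and these outnumbered the reverse under every scaling.

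**Figure D1:**
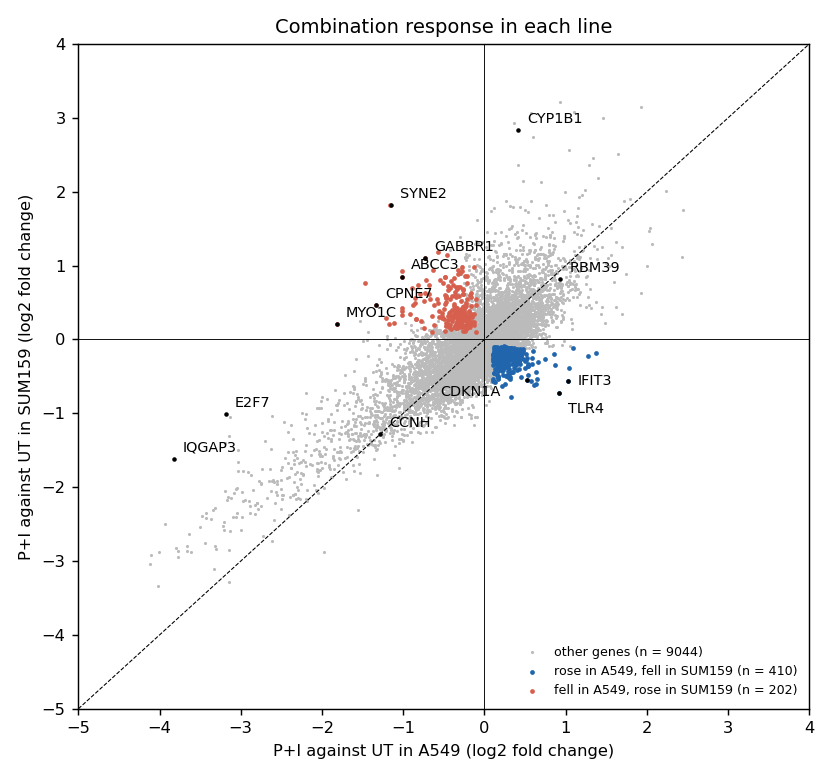
Log2 fold change of P+I against UT in A549 (horizontal axis) and SUM159 (vertical axis) for the 9656 genes with at least 5 CPM in each line; each point is a gene, the dashed line marks equal responses, and genes with opposite called responses are coloured. Most points follow the diagonal, many of the strongly falling genes lie above it, and 410 and 202 genes sit in the quadrants of opposite responses.

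Among protein-coding genes with at least 5 CPM in each line, the opposite response with the largest difference was that of SYNE2 (ENSG00000054654, chr14:63761899-64226433 on GRCh38), which encodes nesprin-2, a protein that links the nuclear envelope to actin. Its level was 43.9 and 49.1 CPM in UT and 18.6 and 23.1 CPM in P+I A549 libraries, and 26.96 and 29.9 CPM in UT and 103 and 96.9 CPM in P+I SUM159 libraries. In neither line did the UT and P+I libraries overlap. SYNE2 fell by 1.16 in A549 and rose by 1.82 in SUM159 on the log2 scale, a difference of 2.98 ± 0.12 (SE, adjusted p = 3.1e-14). Each drug alone pointed the same way in its line, with log2 changes for indisulam of -0.47 in A549 and 1.40 in SUM159, and for palbociclib of -0.68 in A549 and 0.45 in SUM159.

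A pair of genes of xenobiotic and lipid handling fell in A549 and rose in SUM159. ABCC3 (ENSG00000108846, chr17:50634777-50692253), an organic anion export pump, measured 594 and 619 CPM in UT and 279 and 320.0 CPM in P+I A549 libraries, and 71.1 and 67.1 CPM in UT and 132 and 117 CPM in P+I SUM159 libraries. The responses were -1.02 ± 0.06 and 0.85 ± 0.07, with a difference of 1.87 ± 0.09 (SE, adjusted p = 4.3e-13). Both drugs moved ABCC3 in both lines and in opposite directions: palbociclib alone gave 0.65 in A549 and 1.87 in SUM159, and indisulam alone -1.81 in A549 and -0.95 in SUM159. CYP4F11 (ENSG00000171903, chr19:15912367-15934867), a cytochrome P450 that oxidises fatty acids, stood at 114 and 114 CPM in UT and 56.8 and 56.5 CPM in P+I A549 libraries, and 3.42 and 3.67 CPM in UT and 6.14 and 7.46 CPM in P+I SUM159 libraries. Its difference was 1.94 ± 0.15 (SE, adjusted p = 1.6e-09).

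GABBR1, CPNE7 and MYO1C completed the 6 largest differences of this kind. GABBR1 (ENSG00000204681, chr6:29555629-29633976), a subunit of the GABA-B receptor, went from 16.98 and 22.1 to 10.3 and 13.2 CPM in A549 and from 13.8 and 11.98 to 29.6 and 25.3 CPM in SUM159, a difference of 1.83 ± 0.20 (SE, adjusted p = 1.8e-07). CPNE7 (ENSG00000178773, chr16:89575758-89597246), a calcium-dependent membrane-binding protein, had responses of -1.34 ± 0.09 and 0.46 ± 0.09. The unconventional myosin MYO1C (ENSG00000197879, chr17:1464186-1492686) fell from 252 and 251 to 71.5 and 70.8 CPM in A549, and its response there was -1.82 ± 0.05. In SUM159 MYO1C was at 21.4 and 20.3 CPM before and 25.6 and 22.2 CPM after treatment, a change of 0.20 ± 0.08. That small rise rested on single libraries, since it was 0.17 (adjusted p = 0.16) without SUM159 UT replicate 2 and 0.09 (adjusted p = 0.39) without SUM159 P+I replicate 1. The fall in A549 was also seen with indisulam alone, at -1.89.

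With the same filter, large differences in the reverse direction included those of genes of innate immunity and signalling that A549 expressed at low levels. TLR4 (ENSG00000136869, chr9:117704175-117724735), the receptor for bacterial lipopolysaccharide, measured 6.88 and 5.11 CPM in UT and 10.5 and 12.3 CPM in P+I A549 libraries, and 106 and 109 CPM in UT and 64.5 and 65.4 CPM in P+I SUM159 libraries. It rose by 0.92 and fell by 0.72 on the log2 scale, a difference of -1.64 ± 0.14 (SE, adjusted p = 4.8e-09). PAG1 (ENSG00000076641, chr8:80967810-81112068), an adaptor that recruits the kinase CSK to membranes, had responses of 0.64 ± 0.12 and -0.60 ± 0.06. Further members of this group, IFIT3, IFIT2 and SAMD9L, are interferon-stimulated and are described with that programme.

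**Figure D2:**
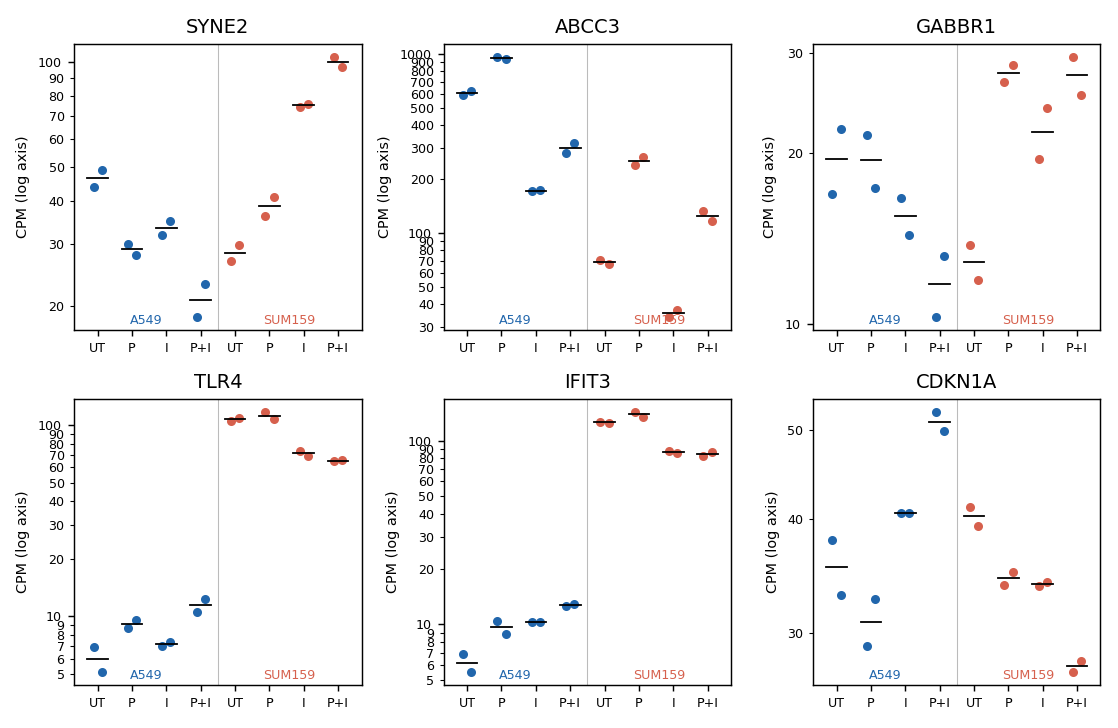
Level in CPM (log axis) of 6 genes with opposite responses in each of the 16 libraries; points are libraries (A549 blue, SUM159 red), bars are means of the 2 libraries, and groups are untreated (UT), palbociclib (P), indisulam (I) and both drugs (P+I). SYNE2, ABCC3 and GABBR1 end lower than UT in A549 and higher in SUM159, and TLR4, IFIT3 and CDKN1A end higher in A549 and lower in SUM159.

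The cell cycle genes fell in both lines and fell further in A549. All 54 tested E2F and S-phase genes, which encode the replication machinery, responded downward in each line, with a median of -2.05 in A549 and -1.65 in SUM159. The difference was called higher in SUM159, meaning a smaller fall, for 36 members and lower for 3. The 57 mitotic genes had medians of -2.42 and -1.98, with 45 called higher and 0 lower. Called shares of these lists were 72.2% and 78.9%, against 31.7% of all genes. Over all genes the median difference was 0.04, against 0.43 and 0.47 for these lists. DESeq2 called the fewest of the scalings and tools tried, with 31 and 38 members higher.

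E2F7 (ENSG00000165891, chr12:77021248-77065569), an atypical E2F that represses its targets, fell further in A549. It measured 37.3 and 38.6 CPM in UT and 4.002 and 4.35 CPM in P+I A549 libraries, and 70.8 and 77.2 CPM in UT and 37.9 and 35.3 CPM in P+I SUM159 libraries. The falls were -3.18 ± 0.09 and -1.01 ± 0.06, a difference of 2.17 ± 0.11 (SE, adjusted p = 1.3e-12), and palbociclib alone already gave -2.49 in A549 and -0.69 in SUM159. The licensing factor CDC6 and the replication factor MCM10 had differences of 1.11, adjusted p = 5.2e-11, and 1.09, adjusted p = 2.3e-08. In the opposite sense, PCNA, the sliding clamp of DNA polymerases, fell from 333 and 328 to 112 and 112 CPM in A549 and further, from 242 and 257 to 50.4 and 50.4 CPM, in SUM159. Its difference was -0.75 ± 0.07 (SE, adjusted p = 1.4e-08), and DUT, which removes dUTP, and the histone mRNA-binding protein SLBP also fell more in SUM159, by -0.54 and -0.25.

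Of the proliferation markers fixed for naming, LMNB1, the nuclear lamin lost in senescent cells, went from 195 and 196 to 18.4 and 20.1 CPM in A549 and from 209 and 200.4 to 41.9 and 40.4 CPM in SUM159. The untreated levels were similar in CPM, and the P+I level was higher in SUM159, with a difference of 1.03 ± 0.08 (SE, adjusted p = 1.2e-09). TOP2A, the topoisomerase of dividing cells, had responses of -4.00 ± 0.05 and -2.87 ± 0.05, and the condensin subunit gene NCAPH of -4.10 ± 0.09 and -2.92 ± 0.07. CDC25C, the phosphatase that activates CDK1 at mitotic entry, differed by 1.17, adjusted p = 3.0e-06. The proliferation antigen MKI67 differed by 0.42 ± 0.11 (SE, adjusted p = 0.0064), which was 0.29 (adjusted p = 0.058) without A549 UT replicate 2 and 0.33 (adjusted p = 0.061) without SUM159 P+I replicate 1.

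CDK2, the kinase that partners cyclin E, fell in both lines, at -1.55 ± 0.06 and -1.35 ± 0.05. Its difference of 0.21 ± 0.08 (SE, adjusted p = 0.048) sat at the threshold and was not called when any of A549 UT replicates 1 or 2, A549 P+I replicate 1, SUM159 UT replicate 2 or SUM159 P+I replicates 1 or 2 was left out, with adjusted p between 0.082 and 0.24. Cyclin E2 (CCNE2) dropped from 12.8 and 11.5 to 1.20 and 0.709 CPM in A549 and from 28.6 and 28.96 to 3.80 and 4.16 CPM in SUM159. Its difference was 0.80 ± 0.24 (SE, adjusted p = 0.013), and 0.48 (adjusted p = 0.22) without A549 P+I replicate 2, the library with its lowest level.

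**Figure D3:**
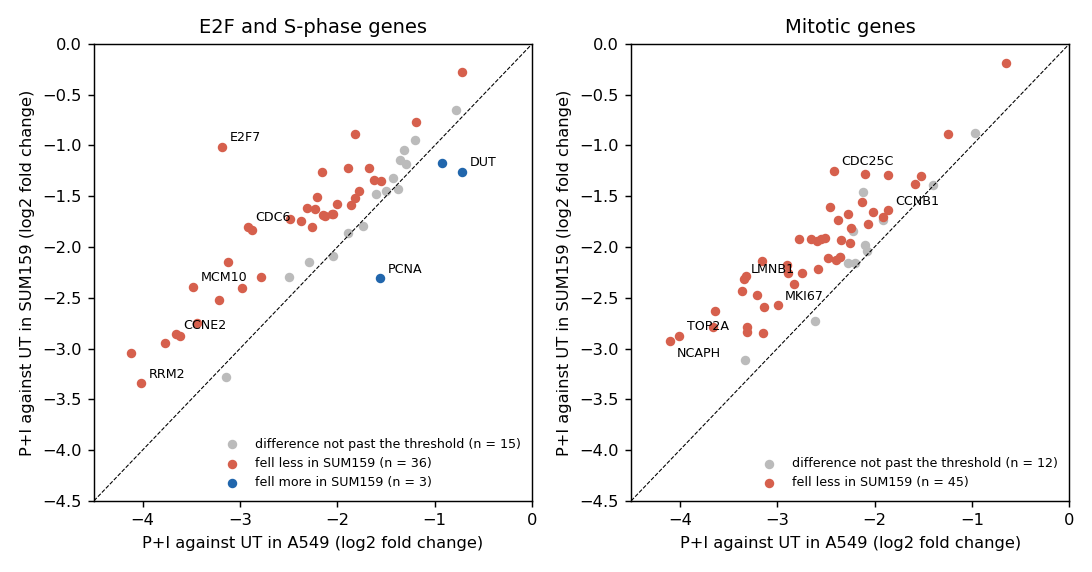
Log2 fold change of P+I against UT in A549 and SUM159 for 54 E2F and S-phase genes (left) and 57 mitotic genes (right); each point is a gene and the dashed line marks equal falls. Every point lies below 0 on both axes, and 36 and 45 genes are called as falling less in SUM159.

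Among protein-coding genes with at least 5 CPM in each line that fell in both, IQGAP3, E2F7 and PIF1 had the largest differences with the larger fall in A549. IQGAP3 (ENSG00000183856, chr1:156525405-156572604), a scaffold protein of proliferating cells, fell from 87.98 and 91.3 to 5.47 and 7.19 CPM in A549 and from 72.6 and 72.6 to 23.9 and 23.4 CPM in SUM159, a difference of 2.21 ± 0.13 (SE, adjusted p = 6.3e-12). PIF1, a DNA helicase, followed with 2.09 ± 0.23 (SE, adjusted p = 2.9e-07). With the same filter, falls that were larger in SUM159 included those of 3 genes: the DNA glycosylase NEIL3 at -0.90, adjusted p = 6.7e-06, the nuclease AEN at -0.86, adjusted p = 9.3e-08, and syndecan-1 (SDC1) at -0.79, adjusted p = 4.4e-07.

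The p53 targets were mostly lower in SUM159 relative to A549, and some moved in opposite directions. Of 35 tested targets 21 rose and 5 fell in A549, against 14 and 13 in SUM159. The difference was called lower in SUM159 for 18 and higher for 2, and the median responses were 0.43 and -0.12, the latter 0.03 with total counts. The called share was 57.1%, against 31.7% of all genes. CDKN1A (ENSG00000124762, chr6:36676460-36687337), which encodes the CDK inhibitor p21, measured 37.9 and 33.00 CPM in UT and 52.3 and 49.9 CPM in P+I A549 libraries, and 41.2 and 39.3 CPM in UT and 27.2 and 27.9 CPM in P+I SUM159 libraries. The A549 libraries all rose above their controls and the SUM159 libraries all fell below theirs, with responses of 0.53 ± 0.07 and -0.55 ± 0.07, a difference of -1.07 ± 0.09 (SE, adjusted p = 1.0e-08). Neither drug alone gave that contrast in size: indisulam gave 0.19 in A549 and -0.25 in SUM159, and palbociclib -0.19 in A549 and -0.22 in SUM159. The study reports more p21 protein in both lines by Western blot, after days of the combination at other doses. The CDKN1A values here are of transcript at 16 h only. They do not show whether p21 protein rose or fell in SUM159, and the cause of the transcript fall there was not tested.

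In all 5 p53 targets had opposite responses, and 3 with total counts, each rising in A549. Over all genes 4.27% had opposite responses. BAX, which permeabilises mitochondria in apoptosis, had levels of 67.5 and 63.8 CPM in UT and 92.7 and 98.1 CPM in P+I A549 libraries, and 60.2 and 60.4 CPM in UT and 46.4 and 47.5 CPM in P+I SUM159 libraries, a difference of -0.90 ± 0.07 (SE, adjusted p = 3.6e-09). MDM2, a ubiquitin ligase, and the kinase PLK2 rose by 0.43 and 0.50 in A549 and fell by 0.26 and 0.30 in SUM159, and TRIAP1, an inhibitor of apoptosis, was the fifth member with opposite responses. Cyclin G1 (CCNG1) rose in both, by 1.18 and 0.47. The polymerase POLH, which copies past damaged bases, fell in both and further in SUM159, at -0.64, adjusted p = 4.1e-05. TP53INP1, a stress-induced regulator of autophagy, went the other way, from 4.53 and 5.68 to 20.4 and 17.7 CPM in A549 and from 0.433 and 0.668 to 4.49 and 3.52 CPM in SUM159. Its difference of 0.96 ± 0.34 (SE, adjusted p = 0.034) was not called without A549 UT replicate 2, A549 P+I replicate 2, SUM159 UT replicate 1 or SUM159 P+I replicate 1, where it lay between 0.68 and 0.86.

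Among 15 CDK inhibitors, D cyclins and RB family genes, 5 were called lower and 1 higher (40% called, against 31.7% of all genes). Cyclin D3 (CCND3), a partner of CDK4 and CDK6, rose by 0.27 in A549 and fell by 0.36 in SUM159, a difference of -0.63 ± 0.06 (SE, adjusted p = 1.8e-08). RBL1, the RB relative p107 and itself an E2F target, fell less in SUM159, at 0.92, adjusted p = 2.6e-06. In the CDK-activating kinase and TFIIH core 3 of 9 genes (33.3%, against 31.7% of all genes) were called lower and 0 higher, while total counts, TMM over both lines and the filter of 10 counts gave 2 higher and 3 lower. The 3 lower genes were GTF2H3 (-0.44), CDK7 (-0.37) and GTF2H5 (-0.35), the last not called without A549 UT replicate 1 (-0.32, adjusted p = 0.050) or A549 P+I replicate 1 (-0.29, adjusted p = 0.051).

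Interferon-stimulated genes, the antiviral effectors that STAT2 and IRF9 help to switch on through a shared promoter element, were mostly lower in SUM159 relative to A549 where they differed. In A549 17 of 45 rose and 7 fell, and in SUM159 14 rose and 16 fell. The difference was called lower in SUM159 for 17 members and higher for 5, and 8 had opposite responses, 7 of them rising in A549, against 4 opposite responses with total counts, and 10 of the members were under 1 CPM in A549. The called share was 48.9%, against 31.7% of all genes, and opposite responses were 4.27% of all genes. The median responses were 0.22 and -0.11, the latter 0.04 with total counts. The upstream bases of 3 members that were lower in SUM159 are shown because they carry the element, written GAAA, any 2 bases, GAAA and searched on both strands. They are the 250 bases before the transcription start in RefSeq (GRCh38.p14), 5′ to 3′ on the gene's strand, with the matches in capitals.
IFIT3 (chr10:89327747-89327996, plus strand): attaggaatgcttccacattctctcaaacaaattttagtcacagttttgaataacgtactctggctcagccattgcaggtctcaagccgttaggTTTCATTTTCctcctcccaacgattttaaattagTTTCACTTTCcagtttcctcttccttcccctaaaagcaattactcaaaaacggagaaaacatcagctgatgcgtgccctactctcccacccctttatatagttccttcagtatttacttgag
IFIT1 (chr10:89392373-89392622, plus strand): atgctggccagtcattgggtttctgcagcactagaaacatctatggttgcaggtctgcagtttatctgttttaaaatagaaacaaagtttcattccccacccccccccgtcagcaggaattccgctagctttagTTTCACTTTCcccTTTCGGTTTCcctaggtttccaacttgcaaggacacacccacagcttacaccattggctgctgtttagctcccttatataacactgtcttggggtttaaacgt
IFI44 (chr1:78649539-78649788, plus strand): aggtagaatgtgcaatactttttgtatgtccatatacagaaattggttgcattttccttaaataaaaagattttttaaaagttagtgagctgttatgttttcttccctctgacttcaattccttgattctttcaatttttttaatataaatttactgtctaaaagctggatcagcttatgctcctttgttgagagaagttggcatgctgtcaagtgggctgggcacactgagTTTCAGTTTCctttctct
The matches begin 122, 103 and 18 bases before the start at their nearest, all on the minus strand relative to the gene. The element was present in 3.02% of 35116 promoters of this length, counted per promoter. Counted per gene, with a match in any promoter of the gene, it was present in 23 of the 36 list members with an entry. It was found in 9 of 15 members called lower, 1 of 4 called higher and 13 of 17 not called.

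The IFIT genes, whose products bind foreign RNA, lie near each other on chromosome 10 and rose in A549 and fell in SUM159. IFIT3 measured 6.88 and 5.51 CPM in UT and 12.6 and 12.9 CPM in P+I A549 libraries, and 126 and 125 CPM in UT and 82.8 and 87.2 CPM in P+I SUM159 libraries. Its responses were 1.03 ± 0.11 and -0.56 ± 0.05, a difference of -1.60 ± 0.12 (SE, adjusted p = 9.2e-10). IFIT2 went from 5.26 and 4.71 to 11.04 and 9.46 CPM in A549 and from 64.1 and 66.5 to 49.5 and 50.8 CPM in SUM159, and IFIT1 differed by -1.19 ± 0.14 (SE, adjusted p = 8.6e-07). With palbociclib alone IFIT2 rose in both lines (0.82 in A549 and 0.61 in SUM159), whereas indisulam alone gave 0.37 in A549 and -0.63 in SUM159.

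IFI44, also interferon-induced, fell in SUM159, from 83.01 and 79.6 to 24.97 and 22.8 CPM, a response of -1.76 ± 0.07. In A549 it was low, at 0.521 and 0.398 CPM before and 0.690 and 1.04 CPM after treatment, and the response there was not called (adjusted p = 0.063). SAMD9L, an interferon-induced restrictor of translation, rose from 4.06 and 4.49 to 9.94 and 12.2 CPM in A549, and its difference was -1.55 ± 0.16 (SE, adjusted p = 9.4e-08). Its SUM159 response of -0.18 ± 0.08 was not called with total counts, DESeq2 or TMM over both lines, nor when any of the 4 SUM159 libraries was left out. OAS2 and GBP1, an oligoadenylate synthetase and a guanylate-binding protein, rose in both lines and more in A549, with differences of -1.01 and -1.26. In the other sense STAT2, a subunit of the interferon-activated factor, went from 38.4 and 38.5 to 38.4 and 49.4 CPM in A549 and from 29.8 and 28.4 to 63.5 and 47.9 CPM in SUM159, a difference of 0.75 ± 0.15 (SE, adjusted p = 0.00049).

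The integrated stress response, in which ATF4 raises genes of amino acid supply and tRNA charging, was mostly higher in SUM159 relative to A549. The difference of the ATF4 transcript itself, 0.11, was not called. In A549 18 of 29 members fell and 6 rose, while in SUM159 10 fell and 13 rose. The difference was called higher for 20 and lower for 2, and 4 members, CHAC1, STC2, CARS1 and AARS1, fell in A549 and rose in SUM159. The called share was 75.9%, against 31.7% of all genes, and 1.84% of all genes were opposite in this direction. Fewer were called higher with DESeq2 or with TMM referred to a SUM159 library, 14 in each. For a pair of these genes the 250 upstream bases are shown because they hold TGATGCAA, a form of the amino acid response element, here read on the opposite strand.
CHAC1 (chr15:40953221-40953470, plus strand): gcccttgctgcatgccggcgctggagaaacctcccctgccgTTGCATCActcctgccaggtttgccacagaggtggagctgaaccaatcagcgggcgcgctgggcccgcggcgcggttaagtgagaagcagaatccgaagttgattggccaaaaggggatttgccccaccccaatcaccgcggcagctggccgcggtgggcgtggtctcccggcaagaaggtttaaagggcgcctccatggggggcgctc
AARS1 (chr16:70289507-70289756, minus strand): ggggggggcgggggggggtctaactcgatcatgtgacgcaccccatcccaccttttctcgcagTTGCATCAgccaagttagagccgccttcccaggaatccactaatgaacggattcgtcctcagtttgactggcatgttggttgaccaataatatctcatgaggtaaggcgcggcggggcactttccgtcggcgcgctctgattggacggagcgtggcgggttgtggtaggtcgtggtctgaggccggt
The matches, in capitals, begin 209 and 187 bases before the start. On either strand TGATGCAA occurred in 0.772% of promoters of this length, counted per promoter. Counted per gene, it occurred in 3 of 25 members with an entry, the other being CEBPG, which was not called.

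STC2, a secreted glycoprotein, measured 41.5 and 40.6 CPM in UT and 30.8 and 29.5 CPM in P+I A549 libraries, and 126 and 125 CPM in UT and 204 and 209.8 CPM in P+I SUM159 libraries. All P+I libraries lay below UT in A549 and above UT in SUM159, and the difference was 1.16 ± 0.07 (SE, adjusted p = 1.1e-11). The cysteinyl-tRNA synthetase CARS1 and the alanyl-tRNA synthetase AARS1 differed by 0.85, adjusted p = 4.1e-08, and 0.75, adjusted p = 5.0e-10. CHAC1, which degrades glutathione, was at 2.14 and 2.78 CPM in untreated A549 and 2.31 and 2.34 CPM in untreated SUM159 and measured 1.70 and 1.28 CPM in A549 and 6.05 and 4.47 CPM in SUM159 with P+I, a difference of 1.90 ± 0.37 (SE, adjusted p = 0.00027). Its fall in A549 was not called with total counts, DESeq2, the replicate block or TMM referred to a SUM159 library, nor without A549 UT replicate 2 or A549 P+I replicate 2. ASNS, asparagine synthetase, was low in both lines, and its difference of 1.52 ± 0.48 (SE, adjusted p = 0.016) was not called without A549 UT replicate 2 (1.18, adjusted p = 0.12) or SUM159 UT replicate 1 (1.21, adjusted p = 0.11). ATF3, an early stress-induced factor, ran against the list, rising from 8.18 and 6.99 to 17.99 and 17.4 CPM in A549 and lying at 3.51 and 3.24 against 3.27 and 3.71 CPM in SUM159.

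Chaperones of the endoplasmic reticulum were also higher in SUM159 relative to A549. Of 19 genes of the unfolded protein response 14 fell in A549 and 9 in SUM159, and 13 were called higher with 0 lower (68.4% called, against 31.7% of all genes). HSPA5, the chaperone BiP, went from 708 and 704 to 407 and 418 CPM in A549 and from 1392 and 1368 to 1217 and 1237 CPM in SUM159, a difference of 0.61 ± 0.05 (SE, adjusted p = 5.0e-09). Indisulam alone gave -0.80 in A549 and -0.13 in SUM159, and palbociclib 0.08 in A549 and 0.10 in SUM159. HYOU1 and CRELD2, further chaperones of this compartment, differed by 0.61 and 0.72. The 20 cytosolic chaperones were divided, 4 higher and 6 lower (50% called), and 6 and 4 with TMM over both lines. HSPE1 and HSPA8 were lower in SUM159 (differences -0.69 and -0.49) and HSPA1B higher (0.46), although the near-identical copy HSPA1A can share its reads.

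**Figure D4:**
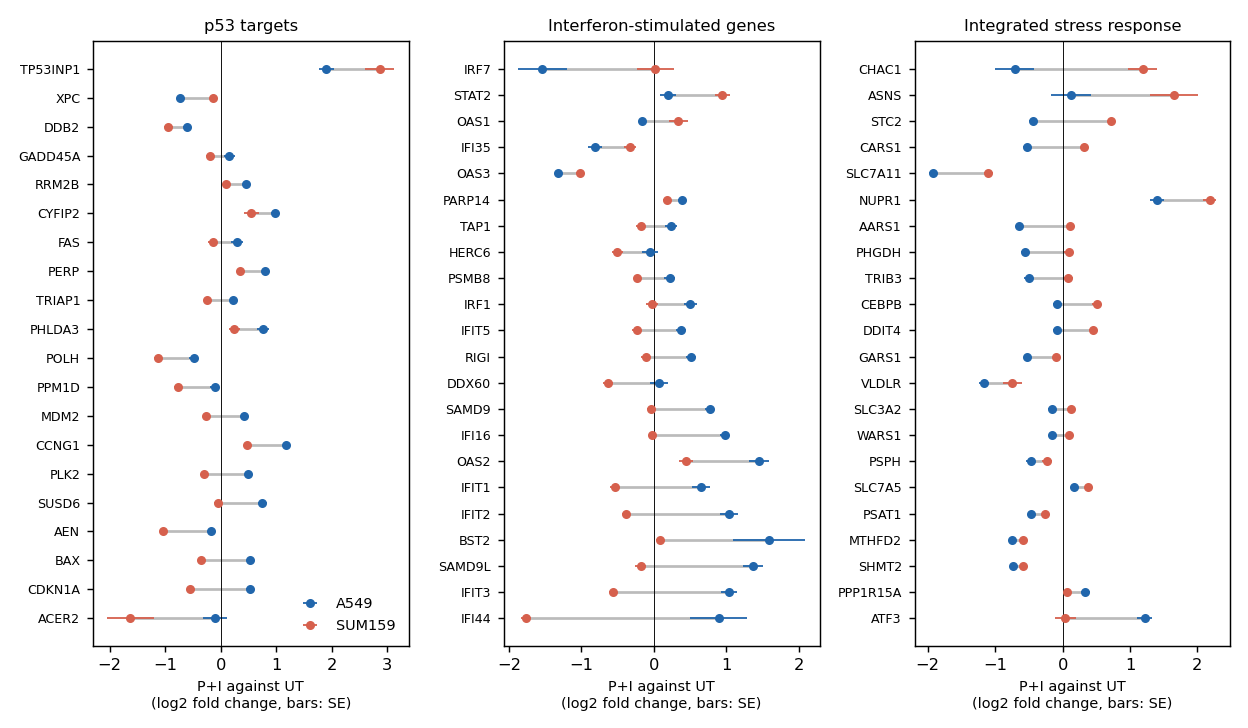
Log2 fold change of P+I against UT, with SE bars, in A549 (blue) and SUM159 (red) for the members whose difference was called in the p53 (20 genes), interferon (22 genes) and integrated stress response (22 genes) lists, ordered by the difference. SUM159 lies to the left of A549 for most p53 and interferon genes and to the right for 20 of the 22 stress genes.

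Genes of oxidative and xenobiotic metabolism differed in both directions. Of 33 NRF2 targets 11 were called higher in SUM159 and 8 lower (57.6% called), and the median responses were 0.15 and 0.16. ALDH3A1, an aldehyde dehydrogenase, measured 4531 and 4322 CPM in UT and 5107 and 4942 CPM in P+I A549 libraries, but only 1.20 and 1.19 CPM in UT and 3.21 and 3.86 CPM in P+I SUM159 libraries. Its difference was 1.36 ± 0.16 (SE, adjusted p = 9.2e-07). Of 12 genes of the aryl hydrocarbon receptor 4 were called higher and 0 lower (33.3% called, against 31.7% of all genes). ARNT2 was among them at 1.04, which was not called without SUM159 UT replicate 2 (0.91). CYP1B1 (ENSG00000138061, chr2:38066973-38109902), a P450 that this receptor induces, went from 2.31 and 2.10 to 14.9 and 16.7 CPM in SUM159 and from 126 and 127 to 170.0 and 168 CPM in A549, a difference of 2.42 ± 0.13 (SE, adjusted p = 1.3e-12). The related CYP1A1 rose in both, to 0.506 and 0.709 CPM in A549 and 22.9 and 23.9 CPM in SUM159. From untreated A549 levels of 0.0521 and 0.227 CPM, at or near the floor, its difference could not be settled at this depth (1.23 ± 0.84 (SE, adjusted p = 0.30), interval -0.51 to 2.96), and it was -0.07 without A549 UT replicate 2.

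Splicing and translation genes were mostly lower in SUM159 relative to A549. Of the 8 genes of RBM39, its paralog RBM23 and the ligase that indisulam redirects, 2 were called, RBX1 (-0.44) and CUL4A (-0.25). That was 25%, against 31.7% of all genes, and with TMM referred to a SUM159 library 5 were called. Among 45 splicing regulators 24 were called lower in SUM159 and 4 higher (62.2% called), with medians of -0.15 in A549 and -0.35 in SUM159. HNRNPL, an RNA-binding regulator of exon choice, rose from 245 and 236 to 416 and 442 CPM in A549 and lay at 259.6 and 256 against 242 and 243 CPM in SUM159, a difference of -0.92 ± 0.05 (SE, adjusted p = 1.4e-11). PTBP2, the neural relative of PTBP1, rose in both lines, by 2.00 and 1.00. With indisulam alone the changes of HNRNPL were 1.21 in A549 and 0.43 in SUM159, and those of PTBP2 2.17 in A549 and 1.38 in SUM159. Gene counts do not resolve splice isoforms.

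Ribosomal protein genes had the largest share of called differences of any list, 96.1%. Of 76 tested, 72 were called lower in SUM159 and 1 higher, against 15.7% and 16.0% of all genes. The median responses were small, 0.22 and -0.18, and 52 members had opposite called responses. That number depended on the scaling, with 10 members opposite under total counts and 28 under TMM over both lines, while at least 69 were called lower under each. RPL10 measured 860.1 and 833 CPM in UT and 1122 and 1157 CPM in P+I A549 libraries, and 1158 and 1200.2 CPM in UT and 949 and 963 CPM in P+I SUM159 libraries, a difference of -0.73 ± 0.08 (SE, adjusted p = 1.7e-07). RPL34 differed by -0.60, adjusted p = 1.1e-06. Ribosomal protein genes have many pseudogene copies, so their counts are uncertain. In the MYC network and ribosome biogenesis 13 of 29 genes were called lower and 4 higher, with the rRNA methyltransferase fibrillarin (FBL) at -0.54 and the MYC antagonist MXD1 at -0.88. The called share of this list was 58.6%, against 31.7% of all genes.

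Lists of lineage genes had called differences in both directions, in 36.4% of epithelial and 41.7% of mesenchymal genes against 31.7% of all genes. Epithelial genes had 6 of 22 higher and 2 lower, but 13 of the 22 were under 1 CPM in SUM159, and the 9 with at least 10 counts in each of the 8 libraries gave 3 higher and 1 lower. ESRP1, an epithelial splicing factor, fell from 13.1 and 13.3 to 4.37 and 3.88 CPM in A549 but did not exceed 0.125 CPM in SUM159, so no fold is given there. CLDN7, a tight junction protein, went from 3.85 and 3.29 to 2.35 and 1.51 CPM in A549 and from 0.530 and 0.811 to 1.68 and 1.78 CPM in SUM159, a difference of 2.25 ± 0.37 (SE, adjusted p = 4.3e-05). Mesenchymal genes had 4 of 24 higher and 6 lower, with 9 of the 24 under 1 CPM in A549. The transcription factor SNAI2 fell from 61.01 and 61.1 to 40.9 and 42.9 CPM in SUM159 and rose from 0.260 and 0.284 to 0.966 and 1.04 CPM in A549, while its relative SNAI1 differed by 1.64, adjusted p = 2.2e-05. THY1, a surface glycoprotein of fibroblasts, measured 106 and 102 CPM in untreated SUM159 and 0.156 and 0.284 CPM in untreated A549, and 0 in both A549 P+I libraries.

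Inflammatory and secreted factors had 9 of 33 higher and 6 lower, with 11 under 1 CPM in A549. The called share was 45.5% for this list, against 31.7% of all genes. It was 40.9% for ERK output genes, 50% for YAP and TEAD targets and 45% for TGF-beta targets. IGFBP3, which binds insulin-like growth factors, fell from 1131 and 1098 to 655 and 659 CPM in A549 and rose from 2.60 and 2.34 to 5.14 and 5.41 CPM in SUM159, a difference of 1.85 ± 0.13 (SE, adjusted p = 2.0e-10). The cytokine IL1B did not exceed 2.12 CPM in either line, and its difference (2.39) was 2.02 (adjusted p = 0.17) without A549 UT replicate 2 and 2.14 (adjusted p = 0.094) without SUM159 UT replicate 2. Genes of ERK output had 1 of 22 higher and 8 lower (2 and 5 with total counts), with the phosphatase DUSP5 at -0.69 and the AP-1 subunit FOSL1 at -0.45. YAP and TEAD targets had 4 of 20 higher and 6 lower, 6 and 5 with total counts or TMM over both lines and 1 and 10 with TMM referred to a SUM159 library, and tissue factor (F3) rose from 453 and 428 to 877 and 813 CPM in SUM159, a difference of 1.26 ± 0.11 (SE, adjusted p = 8.1e-09). TGF-beta targets had 5 of 20 higher and 4 lower, with fibronectin (FN1) at 0.59.

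Glucocorticoid receptor targets had 2 of 18 higher and 5 lower (38.9% called, against 31.7% of all genes), and 4 and 4 with total counts. The receptor gene itself, NR3C1, rose from 231 and 242 to 325 and 309 CPM in A549 and fell from 133 and 144 to 104 and 106 CPM in SUM159, a difference of -0.82 ± 0.06 (SE, adjusted p = 6.9e-10). FKBP5, a chaperone that the receptor induces, fell by 1.06 in A549 and by 0.34 in SUM159. The SUM159 medium held hydrocortisone in all of its groups and the labels give none for A549, which cannot be told apart from the line here. Lysosome genes had 9 of 33 higher and 12 lower, but 11 higher and 6 lower with total counts or TMM over both lines, with the peptidase TPP1 at 0.74 and NAGLU, which degrades heparan sulfate, at 0.70. Cholesterol synthesis had 7 of 25 higher and 7 lower, but 4 and 11 with TMM referred to a SUM159 library. Called shares were 63.6% for lysosome and 56% for cholesterol genes, against 31.7% of all genes.

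**Figure D5:**
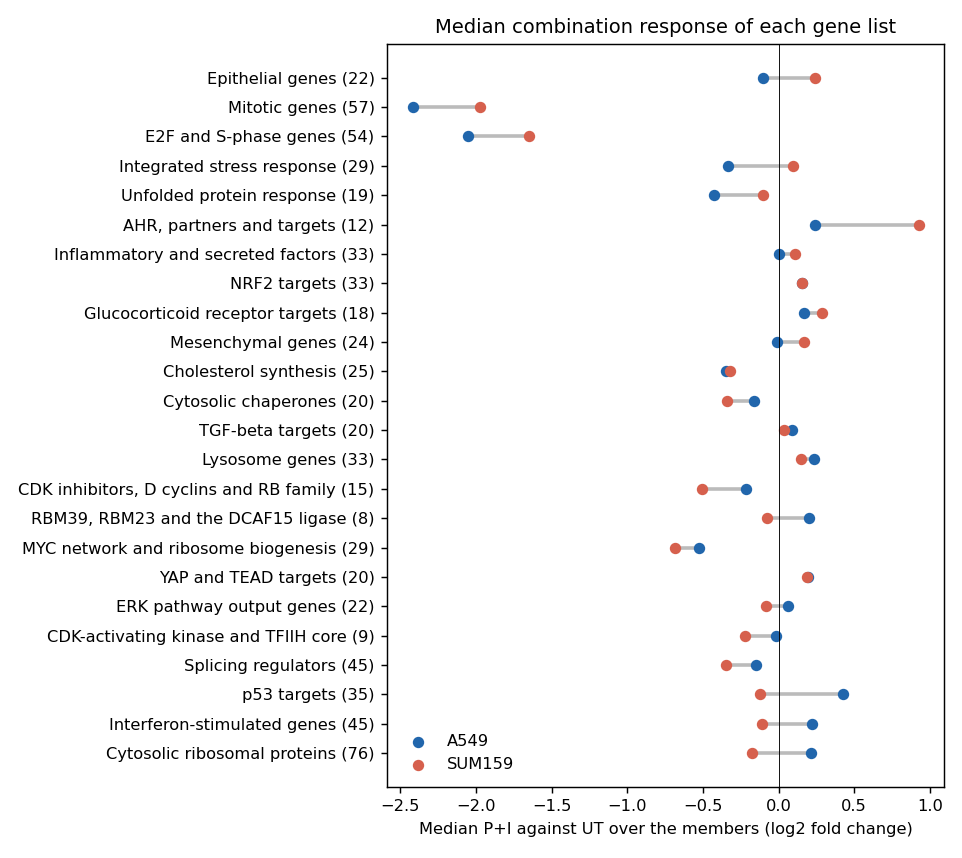
Median log2 fold change of P+I against UT over the tested members of each of 24 gene lists (number of members in brackets) in A549 (blue) and SUM159 (red), ordered by the median difference between lines. Mitotic and E2F genes lie far below 0 in both lines, and ribosomal protein, interferon and p53 lists have A549 above 0 and SUM159 below it, although with total counts the SUM159 medians of the interferon and p53 lists were 0.04 and 0.03.

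For the senescence lists used by the study, the called differences were 5 and 8 of 40 higher and lower for Casella, 6 and 9 of 38 for Purcell, 5 and 7 of 30 for Hernandez, 4 and 1 of 25 for the secreted factors of Hernandez and 17 and 13 of 71 for Fridman. The study scored these lists in a separate experiment with days of treatment at other doses, not in the 16 h libraries used here. The Hernandez split of 5 and 7 was 8 and 4 with total counts. Called shares ran from 20% to 42.3%, around the 31.7% of all genes, and the median differences from -0.16 to 0.31. Both lines raised more members than they lowered in 4 of the lists, and in the list of secreted factors A549 had 7 rises and 7 falls and SUM159 9 and 4. The marker lists fixed to check identity gave 3 called differences of 7 for A549 or lung, 5 of 9 for SUM159 or breast and 1 of 5 for other cell types, the last being CD14 (0.88), which did not exceed 8.51 CPM in the 8 libraries and was not called without A549 UT replicate 1, A549 P+I replicate 2, SUM159 UT replicate 2 or SUM159 P+I replicate 2, where it lay between 0.67 and 0.72.

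One-line responses were defined as a called change of at least 1 on the log2 scale in a line with less than 0.5 in the other, a called difference and at least 1 CPM in each line. SUM159 had 235 such genes, 217 rising and 18 falling, and A549 had 179, 39 rising and 140 falling. A further 17 and 13 genes met the rule with the other line under 1 CPM. The genes that met this rule were thus mostly rises in SUM159 and falls in A549. The rule allows a smaller move in the other line: SDC1 and POLH fell, and GBP1 and OAS2 rose, in both. With less than 0.25 allowed in the other line, 111 and 87 remained, and with at least 5 CPM in each line 111 and 75.

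Among protein-coding genes with at least 5 CPM in each line, large one-line rises in SUM159 included those of MEGF6, CYP1B1, ACCS and AQP3. MEGF6 went from 1.11 and 1.43 to 10.7 and 8.59 CPM, against 42.6 and 43.5 and 64.04 and 46.9 CPM in A549 UT and P+I. AQP3, a channel for water and glycerol, measured 18.4 and 17.3 CPM in UT and 79.7 and 77.6 CPM in P+I SUM159 libraries, and 451 and 414 CPM in UT and 612 and 585 CPM in P+I A549 libraries. Its responses were 2.14 ± 0.06 and 0.47 ± 0.04, a difference of 1.67 ± 0.08 (SE, adjusted p = 4.3e-13), and ACCS had 1.94 ± 0.19 (SE, adjusted p = 4.3e-08). The untreated levels of CYP1B1, MEGF6 and AQP3 were lower in SUM159 than in A549. SCARA5 (ENSG00000168079, chr8:27869883-27992673), a ferritin receptor, passed the same-direction rule with 3.07 ± 0.11 in SUM159 and 0.57 ± 0.05 in A549. It rose from 2.12 and 2.10 to 17.2 and 18.3 CPM in SUM159, and palbociclib or indisulam alone gave 1.72 and 1.27 there. One-line falls in SUM159 included those of SDC1, POLH and NT5DC3, with differences of -0.79, -0.64 and -0.58.

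In A549, with the same filter, large one-line rises included those of AFAP1L2, ADPRHL1, GBP1 and OAS2. ADPRHL1 measured 9.06 and 8.58 CPM in UT and 26.7 and 27.7 CPM in P+I A549 libraries, and 20.6 and 20.3 CPM in UT and 27.3 and 28.1 CPM in P+I SUM159 libraries, a difference of -1.19 ± 0.11 (SE, adjusted p = 1.7e-08). AFAP1L2, a signalling adaptor, differed by -1.36 ± 0.20 (SE, adjusted p = 1.4e-05). Large falls included those of MYO1C, of RTTN and LRRC45, proteins of the centriole and centrosome, and RFLNB. RTTN went from 26.1 and 28.7 to 7.27 and 9.46 CPM in A549 and from 46.03 and 49.4 to 34.9 and 33.5 CPM in SUM159, a difference of 1.23 ± 0.12 (SE, adjusted p = 3.1e-08), and LRRC45 and RFLNB differed by 1.18 and 1.32. Rises shared by both lines and larger in A549 included YY2, a transcription factor, from 1.98 and 1.76 to 10.1 and 10.1 CPM in A549, a difference of -1.31 ± 0.20 (SE, adjusted p = 1.6e-05), and the histone chaperone gene NAP1L2, at -1.30 ± 0.17 (SE, adjusted p = 3.4e-06).

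The single drugs were compared between lines in the same fit, and they share the untreated libraries with the combination. The response to palbociclib alone differed for 2220 genes (12.5%) and that to indisulam alone for 2627 (14.8%). Among mitotic genes 50 of 57 differed in the response to palbociclib with the smaller fall in SUM159, and the medians were -2.15 and -1.51. With indisulam 12 were higher and 8 lower, at medians of -0.25 and -0.21. For p53 targets the counts were 3 higher and 3 lower with palbociclib and 1 and 7 with indisulam. The integrated stress response had 8 higher and 0 lower with palbociclib and 13 and 1 with indisulam. For the unfolded protein response the counts were 3 higher and 2 lower with palbociclib and 11 and 0 with indisulam. Ribosomal protein genes were lower in SUM159 with each drug, 52 and 48 of 76.

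Exons of several named genes overlap those of another gene, so without a stated strand setting their counts are less certain. These are CDKN1A (DINOL), IFIT2 and IFIT3 (LIPA), CYP1B1 (RMDN2), POLH (GTPBP2), LRRC45 (CENPX), CCNE2 (INTS8), CDK2 (PMEL), CCNH (RASA1), YY2 (MBTPS2), GABBR1 (UBD) and CLDN7 (ELP5). TLR4 and SCARA5 overlap unnamed genes.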

How the data were processed

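Poly(A) RNA of 16 libraries was sequenced as pairs, and the authors deposited raw counts of reads per Ensembl gene, not normalized, 1 table per library. Per the submitters' processing notes HISAT2 2.2.1, HTSeq and GRCh38 were used, and the strand setting and annotation release are not given in the sources used here. Rows naming no gene (13.2% to 16.4% of the deposited counts) were left out. Symbols, coordinates and exon overlaps were taken from GENCODE release 44, which may differ from the release used for counting.

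The 16 libraries (18306636 to 34075588 gene counts) were fitted together in edgeR 4.0.16 (R 4.3.3) with 1 coefficient for each of 8 groups, filterByExpr and the quasi-likelihood test, and the difference between lines was the interaction contrast. The fit first used TMM over both lines, and its results were seen. TMM within each line was adopted afterwards because it gave fewer false calls on simulated counts with 200 of 17543 genes moved by 1 on the log2 scale. It recovered 68.5% of the moved genes with 8.67% of 150 calls false, against 69.5% with 23.2% of 181 calls false for TMM over both lines and 63.5% with 2.31% of 130 calls false for DESeq2 1.42.0. All calls by edgeR may thus hold more false ones than the nominal level. The simulation was a single draw that gave SUM159 the A549 response and moved equal numbers of genes up and down. In the data 888 large differences were higher and 142 lower, so it cannot show which scaling suits such an uneven case. CPM are scaled within a line and not between lines. The biological coefficient of variation was 0.0357. The replicate number in the labels was not taken as a pairing.

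The members, gene lists and rules were chosen with earlier results of these data known. The lists were written from general knowledge, and the 5 senescence lists came from the study. Genes were named by rule. They were 8 fixed genes (CDKN1A, RBM39, CCNH, CDK2, CCNE2, LMNB1, MKI67 and CYP1A1), the 6 largest opposite responses in each direction, the 4 largest responses of each kind in 1 line, the 3 largest same-direction differences of each kind, and up to 3 called members per list by size of difference. The filter for all but the fixed genes and list members was a protein-coding gene with at least 5 CPM in each line. AARS1, ATF4, BAX, CARS1, CCNG1, DUT, IFIT1, MDM2, PCNA, PLK2, SLBP, STAT2, STC2 and TRIAP1 were named after their values were seen. Some genes that the rule took are not reported here. Alternatives were other scalings, DESeq2, other filters, the 8 libraries alone, a replicate block and leaving out each library. Promoter bases came from RefSeq (GRCh38.p14), for 36 of 45 interferon and 25 of 29 integrated stress response members.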

Additional observations from a re-analysis of the deposited data

Results flagged for a closer look

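The test of the difference itself singled out 5626 genes (31.7% of the 17764 tested) whose response to the combination differed between SUM159 and A549. The list counts are to be read against that share. The called share was 25% for RBM39 and RBM23 with the DCAF15 ligase and 33.3% for the CDK-activating kinase and AHR lists. For epithelial genes it was 36.4%, so these lists lay near or below the share of all genes. By list, the members with a called difference numbered 20 for p53 targets, 6 for CDK inhibitors with D cyclins and the RB family, 3 for CDK-activating kinase and TFIIH core, 39 for E2F and S-phase genes, 45 for mitotic genes, 19 for NRF2 targets, 4 for AHR with its partners and targets, 22 for interferon-stimulated genes, 15 for inflammatory and secreted factors, 9 for ERK pathway output genes, 10 for YAP and TEAD targets, 9 for TGF-beta targets, 8 for epithelial genes, 10 for mesenchymal genes, 22 for integrated stress response, 13 for unfolded protein response, 10 for cytosolic chaperones, 14 for cholesterol synthesis, 7 for glucocorticoid receptor targets, 21 for lysosome genes, 2 for RBM39 and RBM23 with the DCAF15 ligase, 28 for splicing regulators, 73 for cytosolic ribosomal proteins and 17 for MYC network and ribosome biogenesis.

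Among the genes named by rule, 21 had a response that was higher in SUM159 than in A549. Their differences of log2 responses were 0.21 for CDK2, 0.80 for CCNE2, 1.03 for LMNB1, 0.42 for MKI67, 2.98 for SYNE2, 2.02 for MYO1C, 1.94 for CYP4F11, 1.87 for ABCC3, 1.83 for GABBR1, 1.80 for CPNE7, 2.56 for MEGF6, 2.42 for CYP1B1, 1.94 for ACCS, 1.67 for AQP3, 2.50 for SCARA5, 1.23 for RTTN, 1.18 for LRRC45, 1.32 for RFLNB, 2.21 for IQGAP3, 2.17 for E2F7 and 2.09 for PIF1. The other 17 were lower in SUM159, with -1.07 for CDKN1A, -1.64 for TLR4, -1.60 for IFIT3, -1.55 for SAMD9L, -1.42 for IFIT2, -1.24 for PAG1, -0.79 for SDC1, -0.64 for POLH, -0.58 for NT5DC3, -0.90 for NEIL3, -0.86 for AEN, -1.36 for AFAP1L2, -1.19 for ADPRHL1, -1.26 for GBP1, -1.01 for OAS2, -1.31 for YY2 and -1.30 for NAP1L2. The difference of MYO1C held without each library, although its small rise in SUM159 did not.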

How the results depend on the processing

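The number of genes with a called difference (5626) was 4614 with DESeq2 and 5416 with the replicate block, and 4433 to 5276 when 1 library was left out. Opposite responses (759) numbered 723 with the block and 552 to 702 with 1 library left out. A total of 4053 genes kept a called difference of 1 sign under all 5 settings of scaling and tool (2009 higher, 2044 lower in SUM159). The higher share of called differences was 50.5%, and it was 60.8% with total counts, 61.8% with TMM over both lines, 40.1% with TMM referred to a SUM159 library and 44.7% with DESeq2. Total counts moved the median response by 0.147 in SUM159 and 0.0821 in A549. TMM over both lines was the first fit. TMM within each line, now the main scaling, and TMM referred to a SUM159 library came after its results were seen. Differences of at least 1 (1030) numbered 665 in a fit of the 12360 genes with at least 10 counts in each of the 8 libraries. Opposite responses fell to 117 when both had to reach 0.5. The 235 and 179 responses of 1 line, in SUM159 and A549, became 111 and 87 with the other line under 0.25 and 111 and 75 with at least 5 CPM in each line. Of 1813 values of 114 called named genes under the alternatives, 1737 kept the call and sign, 76 in 24 genes lost the call and 0 reversed. Of the named genes not called, RBM39 (-0.12) was called at -0.18 with TMM referred to a SUM159 library (adjusted p = 0.012, range 0.012 to 0.48 over the alternatives). CCNH (0.01) was -0.022 with DESeq2, -0.0035 with the 8 libraries alone, -0.058 with TMM referred to a SUM159 library and -0.097 to 0.098 with 1 library left out, and CYP1A1 (1.23) was -0.073 to 1.95 with 1 library left out. The cause was not tested. The replicate numbers are only names: the deviations of same-numbered UT and P+I libraries correlated at 0.205 in A549 and 0.0294 in SUM159, across genes. With 2 technical libraries per group, the size of a difference is uncertain at this depth where 1 line lay at 3 counts or fewer. Such genes were not left out of the counts of called differences.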
